A study of Mus musculus with 10 samples.

Results

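The epidermal connexins are the 4 mouse genes Gja1, Gjb2, Gjb5 and Gjb6, which encode connexin 43, connexin 26, connexin 31.1 and connexin 30. The rule that chose them names the genes and uses no measured value, though it was written with earlier results of these data known. The p63 peaks described here are those whose midpoint lay inside one of these genes or within 50 kb of it, and a peak in reach of several connexin genes was assigned to the nearest. Of 8451 p63 peaks, 2 lay in reach of the 4 genes, and 1 of the 2 had one of them, Gja1, as its nearest connexin gene. They are compared with 13 other connexin genes and with all 21779 protein-coding genes of the annotation.

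Peaks came from chromatin immunoprecipitation followed by sequencing (ChIP-seq) of the transcription factor p63 with the antibody 4A4 in MK1 and MK2, 2 mouse keratinocyte lines that the labels call similar. The series holds 10 libraries in 5 groups, with 1 library per line in each group, namely p63, H3K4me1, H3K4me3, H3K27ac and input. No treatment, genotype, strain or passage is given for either line. The 2 p63 libraries were joined into 1 peak list that holds positions only, so read depth is unknown, no peak height can be given and MK1 cannot be set against MK2. Histone mark and input data are not used here.

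Connexins are membrane proteins that pass the membrane several times. A ring of them forms a hemichannel, and hemichannels of neighbouring cells dock to make gap junction channels, through which ions and small molecules move between the cells. In the epidermis connexin 43 is the most abundant member, connexin 31.1 is found in suprabasal layers, and connexins 26 and 30 are best known from hyperproliferative or wounded skin, from the inner ear and from inherited hearing loss with skin disease in humans. p63 is a p53 family factor and a master regulator of stratified epithelia.

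A peak list cannot show which genes the cells expressed, and p63 peaks near marker genes cannot settle the cell type. The neighbourhood of marker genes was looked up only to say whether p63 peaks lay there. The marker lists were chosen with earlier results of these data known. All 6 keratinocyte genes looked up had a p63 peak inside or within 50 kb (Krt5, Krt14, Trp63, Itgb4, Dsg3 and Perp, with 26 peaks counted over the genes). Among fibroblast markers 3 of 5 had one (Col1a1, Vim and Thy1) and among melanocyte markers 1 of 4 (Pmel). Over all protein-coding genes the share was 40.7%.

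The sequences just before the transcription starts of the 4 genes are shown because a p63 peak lay close behind the start of Gja1 and none lay at the starts of the others. Each is the 250 bases before the annotated start, 5′ to 3′ on the gene's own strand, from RefSeq on build GRCm38.p6, whose chromosomes are those of mm10. The windows are chr10:56377050-56377299 on the plus strand for Gja1, chr14:57104703-57104952 on the minus strand for Gjb2, chr4:127358165-127358414 on the minus strand for Gjb5 and chr14:57133612-57133861 on the minus strand for Gjb6. Capitals mark the AP-1 motif TGANTCA, the GC box GGGCGG and the half-site consensus of the p53 family, each searched on both strands.
Gja1: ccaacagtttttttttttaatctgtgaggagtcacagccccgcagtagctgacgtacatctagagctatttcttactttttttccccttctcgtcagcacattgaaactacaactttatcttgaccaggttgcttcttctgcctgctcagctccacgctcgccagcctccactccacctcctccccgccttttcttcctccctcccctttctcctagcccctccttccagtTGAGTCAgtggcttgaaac
Gjb2: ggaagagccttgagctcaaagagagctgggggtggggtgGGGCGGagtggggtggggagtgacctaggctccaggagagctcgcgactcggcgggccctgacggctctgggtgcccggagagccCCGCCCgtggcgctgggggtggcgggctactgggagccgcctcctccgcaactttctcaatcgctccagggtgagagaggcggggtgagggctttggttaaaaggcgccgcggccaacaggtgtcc
Gjb5: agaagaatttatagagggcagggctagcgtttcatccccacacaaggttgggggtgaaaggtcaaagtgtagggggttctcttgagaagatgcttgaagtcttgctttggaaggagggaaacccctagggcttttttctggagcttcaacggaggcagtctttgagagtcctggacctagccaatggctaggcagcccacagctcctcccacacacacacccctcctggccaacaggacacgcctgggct
Gjb6: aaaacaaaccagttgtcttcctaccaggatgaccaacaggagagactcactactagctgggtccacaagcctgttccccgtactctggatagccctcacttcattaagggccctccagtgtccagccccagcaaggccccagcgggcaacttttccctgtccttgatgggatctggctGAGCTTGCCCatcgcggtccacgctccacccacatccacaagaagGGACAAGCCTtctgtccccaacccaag

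The 4 upstream windows held different motifs. Gja1 had 1 AP-1 motif, from 19 to 13 bases before the start, and neither of the other motifs. AP-1 is a group of protein pairs, mainly of the Fos and Jun families. Its motif stood in 6.13% of the 21263 upstream windows of protein-coding genes. Gjb2 had 2 GC boxes, the element bound by Sp1, at 211 to 206 and at 126 to 121 bases before the start, and 42.6% of all windows had at least 1. Gjb6 had 2 half-sites of the p53 family, from 72 to 63 and from 27 to 18 bases before the start. Half-sites stood in 6.31% of all windows, and 2 or more in 0.221%. The 3 motifs were chosen after values were seen, so these shares are no test of how unusual a window is. The 2 in Gjb6 were not adjacent, and no listed p63 peak overlapped that window. Gjb5 had none of the 3 motifs in its window. None of these matches overlapped another.

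The 4 windows also differed in base composition. The share of G and C was 69.2% for Gjb2, 56.8% for Gjb6, 54.4% for Gjb5 and 50.0% for Gja1, against a median of 55.6% over all windows, with quartiles of 47.2% and 64.0%. Gjb2 had 18 CG dinucleotides, Gja1 had 6, Gjb6 had 5 and Gjb5 had 3, against a median of 10. Gjb2 was above the upper quartile of G and C, and the other 3 genes lay between the quartiles.

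Gja1 was the gene of the 4 that held a p63 peak. Gja1 (gene ID 14609) spans 13.1 kb at chr10:56377300-56390419 on the plus strand. The peak lay wholly inside it, at chr10:56378055-56378548. Its first base was 755 bp and its last base 1248 bp behind the annotated start, and its midpoint stood at 7.63% of the gene's length. It was therefore behind the promoter window and did not touch the sequence printed above for Gja1. The annotation used gives gene extents and no exons, so the peak could not be placed in an exon, intron or untranslated region. No other annotated gene overlapped it.

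A peak inside a gene between the lengths of Gjb5 and Gja1 was uncommon, and so was a peak close to a start. Gja1 is at the upper limit of that range, so the share for genes of its own length was not counted. A peak midpoint lay inside 5.05% of the 5629 protein-coding genes with extents between those of Gjb5 and Gja1 (3356 to 13120 bp), and inside 13.4% of all protein-coding genes. Of 17492 protein-coding genes with a start in the promoter table, 3.95% had a peak midpoint within 2 kb of a start, and Gja1 was the 1 of the 4 epidermal connexins that did. Of all peaks, 8.14% lay within 2 kb of such a start.

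The peak in Gja1 was wide and stood alone. Its width of 494 bp exceeded 88.7% of all peaks, whose median was 305 bp with quartiles of 242 and 392 bp. Among the 688 peaks within 2 kb of a protein-coding start, with a median of 313 bp, it exceeded 86.8%. No other peak lay within 100 kb of Gja1: the next lay 215 kb below it, inside Tbc1d32, and 222 kb above it. The nearest other peak was 216 kb away from midpoint to midpoint, against a median of 28.4 kb over all peaks, and 10.7% of peaks were more isolated. Width is the authors' value and says nothing certain about the amount of p63 bound.

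**Figure D1:**
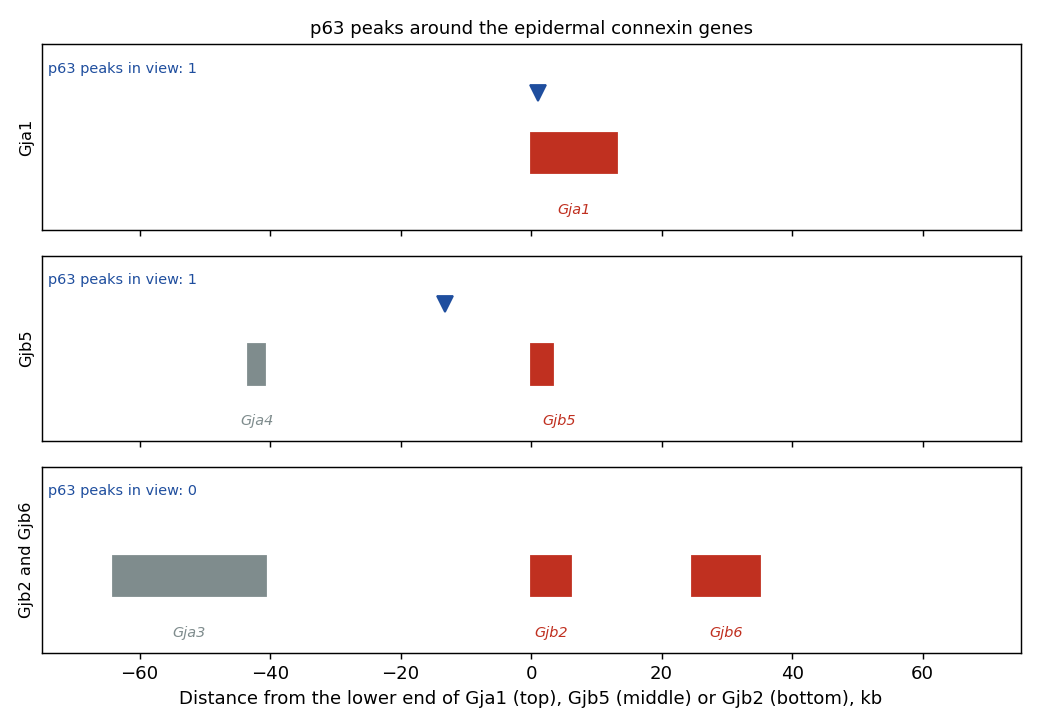
Connexin genes named in the text (boxes, red for the epidermal connexins and grey for others) and p63 peak midpoints (triangles) in 150 kb around Gja1, Gjb5 and Gjb2, with the distance in kb from the lower end of that gene on the horizontal axis. The triangle in the top panel stands inside Gja1, that in the middle panel stands 13.2 kb from Gjb5, and the bottom panel with Gjb2 and Gjb6 has 0 peaks.

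Gjb5 had a peak in reach but was not that peak's nearest connexin gene. Gjb5 (gene ID 14622) spans 3.36 kb at chr4:127354809-127358164 on the minus strand. Its peak had its midpoint 13.2 kb below the gene's lower end. From the start of Gjb5 it was 16.6 kb away, on the downstream side of the gene. The same peak lay 27.6 kb above Gja4, which encodes connexin 37, best known from the endothelium. Gja4 was thus farther from it than Gjb5, and the nearest connexin gene is one not reported here. Which gene the peak acts on, if any, was not measured. Gjb5 itself had 0 peaks inside or at its start.

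The peak near Gjb5 was of ordinary width and among the most isolated of the list. It was 349 bp wide, more than 64.4% of all peaks. The nearest other peak lay 1020 kb away, and 94 of the 8451 peaks (1.11%) were more isolated. The next peak on its lower side lay inside Adprhl2, 1030 kb from Gjb5. The next above Gjb5, at 1220 kb, had Zscan20 as its nearest protein-coding gene. Between those flanking peaks lay 2.25 Mb with 24 protein-coding genes and no other p63 peak.

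**Figure D2:**
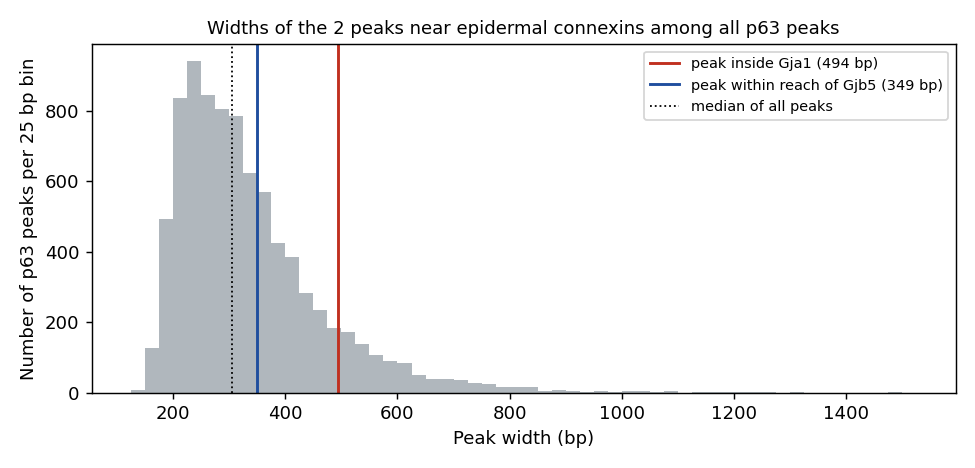
Histogram of the widths of all 8451 p63 peaks in bins of 25 bp, with peak width in bp on the horizontal axis and the number of peaks on the vertical axis. Vertical lines mark the peak inside Gja1 (494 bp), the peak within reach of Gjb5 (349 bp) and the median of 305 bp: both of these peaks lie right of the median, that of Gja1 beyond the upper quartile of 392 bp.

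Gjb2 and Gjb6 had no p63 peak in reach. Gjb2 (gene ID 14619) spans 6.1 kb at chr14:57098602-57104702 and Gjb6 (gene ID 14623) spans 10.3 kb at chr14:57123301-57133611, both on the minus strand and 18.6 kb apart. Their nearest peak was the same one, at chr14:56581167-56581499 inside Parp4, a gene of the poly(ADP-ribose) polymerase family. It was 333 bp wide and lay 517 kb below Gjb2 and 542 kb below Gjb6. On the other side the next peak, inside Zdhhc20, was 746 kb from Gjb2 and 717 kb from Gjb6.

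The stretch without peaks around Gjb2 and Gjb6 measured 1.27 Mb. It held 19 protein-coding genes, among them Gja3, which encodes the lens connexin 46, and the Hippo pathway kinase gene Lats2. Of the 8430 stretches between neighbouring peaks, 467 (5.54%) were at least as long, against a median of 75.1 kb. Counted by gene, 14.1% of protein-coding genes were at least as far from a peak as Gjb2, and 13.5% at least as far as Gjb6. No listed peak overlapped the Gjb6 window with the 2 half-sites printed above. With depth unknown, a missing peak can mean no p63 there or too few reads in either line.

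The count of the 4 genes near a p63 peak was set beside the share of protein-coding genes at large. Of the 4, 2 (50%) had a peak inside or within 50 kb, against 40.7% of all protein-coding genes and 40.3% of those of like length. It was the same 2 of 4 within 25 kb, against 29.7% of all protein-coding genes, and within 100 kb, against 55.2%. With each peak counted for its nearest connexin gene, 1 of the 4 remained, Gja1, a count with no matching share over all genes. No test was made of these shares, because 4 genes in 3 loci are too few to show a likeness or a difference. None of the 4 had a peak over the 300 bases around its start, which 1.27% of protein-coding genes with a listed start had.

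The 50 kb limit did not divide close cases among the 4 genes. Of the peaks inside it, the farthest from its gene was the one 13.2 kb from Gjb5. Beyond it the nearest peaks stood at 215 kb for Gja1, 517 kb for Gjb2, 542 kb for Gjb6 and 1030 kb for Gjb5.

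The 13 other connexin genes compared had peaks in reach in 2 cases, Gja4 and Gjd3. Gja4 shared the peak near Gjb5. Gjd3, for connexin 30.2, had a peak 46.9 kb below it that lay inside Rara, the gene of retinoic acid receptor alpha. Of the 17 connexin genes reported, 4 had a peak within 50 kb, with 3 distinct peaks behind the 4, and 13 had none. The 17 are not the whole family, and at least 1 connexin gene left out of them had a peak in reach, so their share is not set against that of all protein-coding genes. One of the 13 without a peak was Gjb1, for the connexin 32 of liver and myelinating Schwann cells, whose nearest peak was 254 kb away.

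Distances to the nearest peak spread widely among these connexin genes. They lay between 0 kb (Gja1) and 542 kb (Gjb6). Over all protein-coding genes the median was 79.0 kb, with quartiles of 15.9 and 254 kb. Gja1 and Gjb5 lay below the lower quartile, and Gjb2 and Gjb6 lay above the upper quartile.

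**Figure D3:**
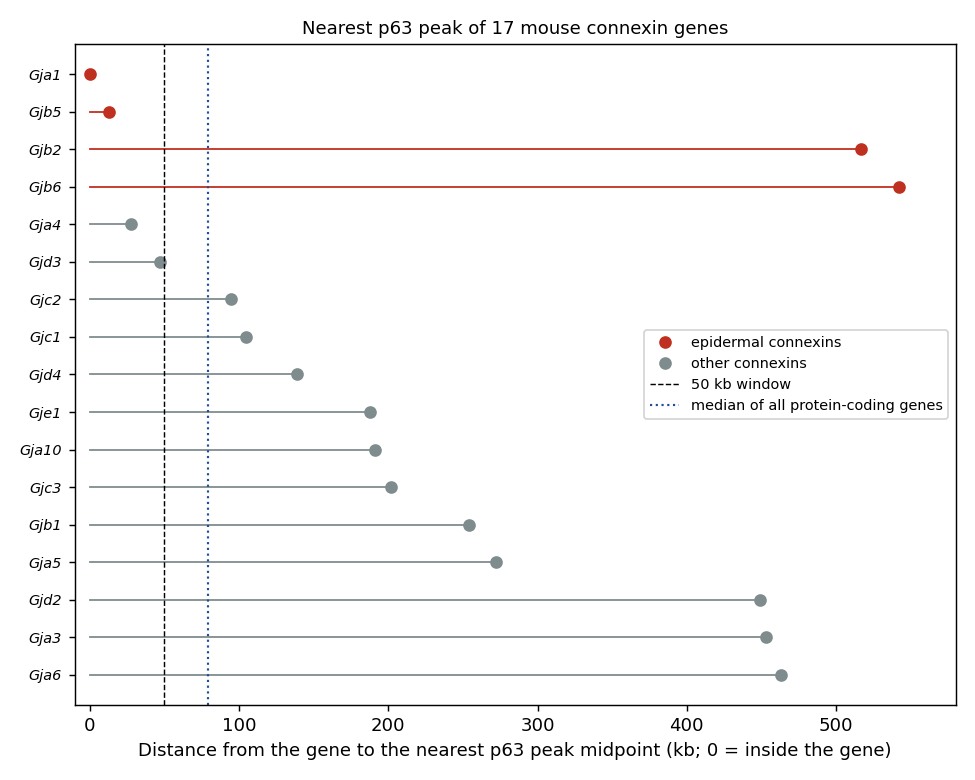
Distance in kb from each of 17 mouse connexin genes to its nearest p63 peak midpoint (0 means inside the gene), with the 4 epidermal connexins in red above 13 others in grey. The dashed line is the 50 kb window and the dotted line the median of all protein-coding genes, 79.0 kb; Gja1 and Gjb5 lie left of both lines, and Gjb2 (517 kb) and Gjb6 (542 kb) lie farther right than any other connexin shown.

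Pannexins form channels related in shape to hemichannels. Of 3 pannexin genes, Panx1 had 1 p63 peak inside it, 234 bp wide. Panx3 and Panx2 had none within 50 kb, and their nearest peaks lay 64.5 and 102 kb away.

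Genes for proteins that bind, modify or turn over connexins, or that belong to the junctions beside them, were also looked up. Of 9 such genes, 7 (77.8%) had a peak inside or within 50 kb, against 46.2% of the 12477 protein-coding genes longer than Gja1. That is a closer background than all protein-coding genes, since 8 of the 9 were longer than Gja1. Length is still not matched, as the 9 run from 7.85 kb (Ccn3) to 232 kb (Tjp1). The 9 are not the whole list that was planned, and no test was made of the 77.8%. Src, the tyrosine kinase that phosphorylates connexin 43, had 8 peaks, 4 of them inside the gene. Tjp1 and Tjp3, which encode zonula occludens proteins, had 2 each, and the product of Tjp1 binds the tail of connexin 43. Ctnnb1 for beta-catenin had 4 peaks, Cdh1 for E-cadherin 3 and Cav1 for caveolin 1 also 3. Nedd4, a ubiquitin ligase for connexin 43, had 1 at 12.3 kb. Dbn1 for drebrin and Ccn3, which encodes a matricellular protein that binds connexin 43, had none, with nearest peaks at 68.7 and 392 kb.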

How the data were processed

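p63 ChIP-seq libraries of MK1 and MK2 were sequenced as 50 bp single-end reads, per the labels' protocols. Bowtie 1.1.1, SAMtools 1.1 and the mm10 build are listed in the submitters' processing notes. Per the labels, the deposited peak list came from running IDR (irreproducible discovery rate) on both p63 libraries. For the peak caller and both thresholds, the sources used here give nothing. The list has 3 columns (chromosome, start, end), with no counts or scores, so depth and its precision are unknown. Single-end fragment ends are inferred, which blurs peak edges.

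Starts were made 1-based. Genes came from a RefSeq table of GRCm38.p6, without strand or exons. Of 49943 rows on the chromosomes, 340 that ended below 3 Mb (Y aside) were left out as scaffold positions. All 44 listed genes matched. Strand and starts came from a RefSeq promoter table (250 bases before to 50 after each start), which held the 4 epidermal connexins but not every connexin gene. Distances are from peak midpoint to gene extent, computed with Python 3.11.15, pandas 2.3.3 and NumPy 2.4.6 and checked on simulated data. Named genes were the 4 epidermal connexins, connexin genes within 100 kb of them, family, pannexin and partner genes with a peak, and the genes nearest to the peaks. Gene names beyond these (Gjb1, Lats2, the genes at flanking peaks, and pannexin and partner genes without a peak) were chosen after their values were seen, as were the motifs. Members and lists were chosen with earlier results of these data known. A few genes of the lists are not reported here and were left out of the list counts, but not of the assignment of peaks to the nearest connexin gene.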

Additional observations from a re-analysis of the deposited data

How the results depend on the processing

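The count of 1 peak and 1 gene among the 4 epidermal connexins, namely Gja1, was unchanged with windows of 25 or 100 kb, with the peak's nearest edge in place of its midpoint, with the nearest protein-coding gene of any kind and with peaks at least as wide as the median. Joining peaks within 10 kb of each other also left 1. Measured from start sites, the count of peaks was 2, with the peak near Gjb5 counted as well. The promoter table lacks some connexin genes, so not every connexin gene could be compared by its start. Counting every gene whose window holds a peak gave 2 genes, and counting every peak in reach gave 2 peaks with a median width of 421.5 bp, against 494 bp for the peak in Gja1. The alternatives with every peak in reach were chosen after seeing the data. Among the 13 other connexins, 0 genes had a peak within 25 kb, 2 within 50 kb and 3 within 100 kb, and 1 with wide peaks alone. No paired analysis was possible because both lines are merged into 1 peak list. Leaving out a line was not possible for the same reason. No stricter peak threshold could be applied, since the list holds no score.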
